A study of Mus musculus with 38 samples.

Results

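The 10 genes described here are the CC chemokines Ccl2, Ccl3, Ccl4, Ccl5, Ccl6, Ccl7, Ccl8, Ccl9, Ccl11 and Ccl12, chosen by name. All non-control probes that the array files assign to these genes were taken, 11 probes of 40628 and 10 genes of 29411. Each gene has 1 probe, except Ccl7 with 2, and each gene is described by its probe of highest mean level. The files list all 11 probes as unmapped, so no position of a probe is given. The longest run of bases shared by any pair of the 60-base probes was 13, between Ccl8 and Ccl12.

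RNA was taken from cells of epididymal fat, called epididymal infiltrating macrophages or stromal vascular cells (SVCs) in the labels, of C57BL/6J mice. LFC mice ate a normal diet with 10% of calories from fat (10 arrays), and HFC mice a diet rich in sucrose with 60% of calories from fat (10 arrays), both from weaning at 3 to 4 weeks of age. The HF5, HF20 and HF75 mice ate the HFC diet with 5, 20 or 75 µg of KAL-1, an ethano-botanical formulation (6 arrays each). Each diet had a single array at a time point. LFC and HFC were sampled on days 6, 10 and 14 (D6, D10 and D14), at week 0 (W0) and every 3 weeks from W3 to W18, and the doses from W3 to W18. Weeks are counted from day 14. The sources do not state how many mice went into an array. With no repeat of a diet at a time point, a diet difference was set against its spread over time points, and p-values measure that spread.

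Chemokines are small secreted proteins that guide leukocytes through receptors on their surface. Ccl2, Ccl7 and Ccl12 call monocytes from the blood through the receptor Ccr2, and Ccl2 is the chemokine best known for bringing monocytes into the fat of obese mice. Ccl3 and Ccl4 are made quickly by stimulated macrophages, and Ccl5 is made in large amounts by T and NK cells. Ccl6 and Ccl9 are rodent chemokines of myeloid cells, Ccl8 is a relative of the monocyte chemokines, and Ccl11 (eotaxin) attracts eosinophils through Ccr3.

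A level below is the log2 processed signal of a probe minus the log2 75th percentile signal of its array, so that 0 is a probe at the 75th percentile and 1 is 2-fold. Levels are compared between arrays for 1 probe, never between probes. The 75th percentile signal ran from 25.8 scanner units on HF5 W12 to 1983 on HFC W0, and the second dimmest array was HF75 W3 at 88.4. Of 43803 spots, 4850 on HFC W12 and 6257 on HF75 W12 were left out of the levels as outliers, but not of the 75th percentile. The count was 922 on HFC D10 and at most 98 on any other array. Every member was well above background on all 38 arrays, except Ccl3, Ccl5 and Ccl12 on HF5 W12. Ccl2 was saturated on LFC W0, HFC W0 and HF20 W18, and Ccl4 on HF5 W9 and HF20 W9, so these levels are lower bounds. Of 10 macrophage genes, at least 8 were well above background on every array, among them Emr1, Cd68 and Csf1r on all 38. Of 10 adipocyte genes, at least 8 were as well. The mean level of the adipocyte genes was 4.83 to 5.19 on 4 arrays, both control diets at W9 and LFC and HF75 at W12, against -0.64 to 4.00 (median 1.89) on the other 34 arrays. On each of the 4 arrays 8 of the 10 adipocyte genes were saturated, so these means are lower bounds. These 4 arrays are called adipocyte-rich, and since they were picked from the data, no test was made on them.

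The 10 genes split on the adipocyte-rich arrays. Ccl2, Ccl7, Ccl3, Ccl4 and Ccl12 were low there, while Ccl6, Ccl9 and Ccl11 had medians there at about the level of the other 34 arrays, though at W9 they too were below the dose arrays. Of the 40 member values on these 4 arrays, 17 were among the 4 lowest of their probe. For 6 genes (the first 5 and Ccl5) all 4 values lay under the median of the other 34 arrays, and for 4 genes (Ccl6, Ccl8, Ccl9 and Ccl11) none was among the 4 lowest. The share of all probes with such values was not counted. These counts, here and below, thus do not set the members apart from other genes. In RNA of a cell mixture, fewer cells of a type and less RNA per cell cannot be told apart.

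Ccl3 had levels of -4.01 on LFC W9, -1.63 on HFC W9, -6.10 on LFC W12 and -1.27 on HF75 W12. The other 34 arrays ran from -2.49 (HF5 W12) to 4.14 (HFC W12) with a median of 1.77. The median of the 4 arrays was 4.59 log2 units under the median of the others, a ratio of 24.2. Both LFC arrays lay below every other array, and the remaining 2 lay below all but HF5 W12, where Ccl3 was not well above background.

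Ccl4, which lies next to Ccl3 in the genome, had levels of -2.27 on LFC W9, -1.36 on HFC W9, -4.16 on LFC W12 and 1.94 on HF75 W12. The other arrays ran from 0.81 (HF5 W12) to 7.12 (HF5 W9) with a median of 4.18, and the medians differed by 5.99, a ratio of 63.5. Ccl4 was thus far down on 3 of the 4 arrays and inside the range of the others on HF75 W12.

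Ccl7 had levels of -0.29 on LFC W9, 0.13 on HFC W9, -2.48 on LFC W12 and -0.53 on HF75 W12, against 0.34 (LFC D6) to 4.83 (HF20 W18) with a median of 3.02 elsewhere. All 4 were below the lowest of the other 34, the only member of which this held. Ccl2 had levels of 2.13, 2.33, 0.27 and 1.45 on the same 4 arrays, against 2.26 (LFC D6) to 6.15 (HFC D6) with a median of 4.64. Only HFC W9 overlapped with the others for Ccl2, lying just above LFC D6. The medians differed by 3.43 for Ccl7 and 2.85 for Ccl2.

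Ccl12, the third Ccr2 ligand, had levels of -1.63, -0.65, -1.45 and -1.17 on the same arrays, again LFC and HFC at W9 and then LFC and HF75 at W12, against -2.02 to 2.67 with a median of 0.92 elsewhere. The lowest value of Ccl12, on HF5 W12, was not well above background. The difference of the medians was 2.23, smaller than for the other Ccr2 ligands, and 3 of the 4 values were among the 4 lowest of all arrays. Ccl5 differed less, with 0.69, 0.78, -0.05 and 0.61 on the 4 arrays, against -3.00 to 5.23 with a median of 2.24.

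Ccl6 had levels of 3.99 on LFC W9, 4.69 on HFC W9, 3.71 on LFC W12 and 4.05 on HF75 W12, all above the median of 3.32 on the other arrays, whose highest was 6.05 on HF5 W9. Ccl9 had levels of 2.18, 2.93, 2.17 and 2.44 there, again all above the median of 1.88 elsewhere. Ccl11 had levels of 0.68, 0.79, 1.19 and 1.27, around the median of 1.01 elsewhere. Ccl8 was mixed, with 1.49, 3.04, 0.82 and 0.53 against a median of 1.94.

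**Figure D1:**
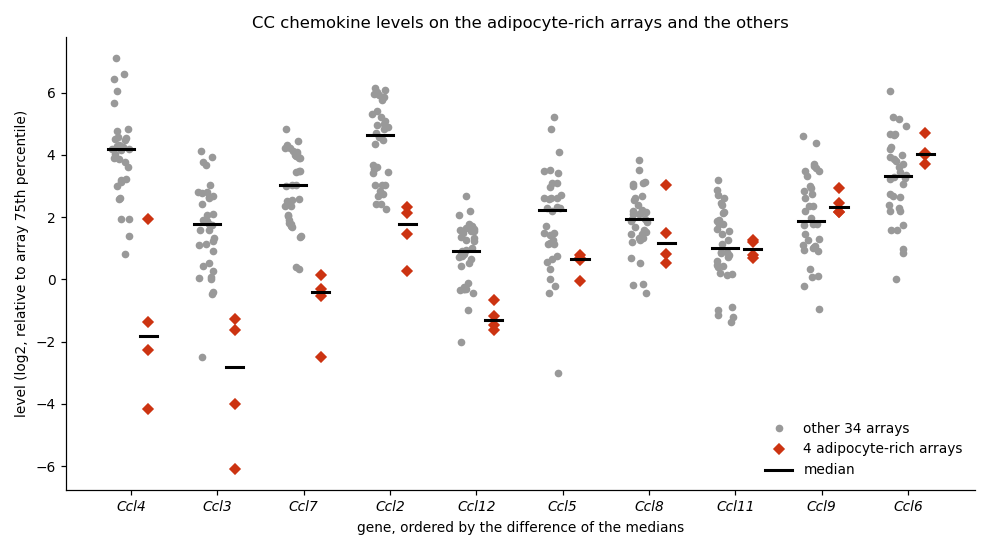
Levels of the 10 genes (y axis, log2 relative to the 75th percentile of the array; genes on the x axis) on the 4 adipocyte-rich arrays (red diamonds) and the other 34 arrays (grey points), with bars at the medians. All 4 diamonds lie below every grey point for Ccl7, 3 of 4 do for Ccl4 and Ccl2, 2 of 4 for Ccl3 and none for the other genes, while the medians of Ccl9 and Ccl6 are higher in red.

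Other genes moved with these low values. The mean level of 10 immediate early genes (Fos, Jun, Egr1 and others switched on within minutes of a stimulus) was -0.19 to 1.65 on the 4 arrays and 3.86 to 5.53 on the other 34. The mean level of 8 cytokines that can induce chemokines, Tnf, Il1b and Il6 among them, was -4.63 to -1.91 on the 4 arrays and -1.77 to 0.84 on the others. In both lists the 4 arrays lay below all others. The 13 NF-kB factors and inhibitors did so too, at -0.03 to 0.39 against 0.71 to 2.30. The 10 macrophage genes did not, at 0.64 to 1.74 against -1.10 to 2.22. Of these, 4 had a lower median there, among them Cd14 (0.88 against 3.34), while Cd163 was higher (2.68 against 1.30). All 10 T and NK cell, 4 B cell, 6 neutrophil, 5 fibroblast and 5 endothelial genes had lower medians there. So did 5 of 7 eosinophil and mast cell and 3 of 5 mesothelial genes. The means of these further lists overlapped with those on the other arrays. The part of these genes and of adipocyte content in the low chemokine values was not tested.

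The scan days allow a check at W12, where all 5 arrays were scanned on the same day. Ccl3 stood at -6.10 on LFC W12 and -1.27 on HF75 W12, against 4.14 on HFC, 0.42 on HF20 and -2.49 on HF5. Ccl7 stood at -2.48 and -0.53, against 4.43, 1.81 and 1.77. The 2 adipocyte-rich arrays were thus the lowest of the week for Ccl7 but not for Ccl3, where the dim HF5 array was lower than HF75. At W9 the LFC and HFC arrays were scanned on another day than the 3 dose arrays, whose Ccl3 levels were 3.94, 3.66 and 3.78, so scan day and adipocyte content cannot be told apart there. Against these 3 arrays, the mean of LFC and HFC at W9 was lower for all 10 members, with differences of -8.52 for Ccl4 and -6.62 for Ccl3, and also of -1.92 for Ccl11, -1.16 for Ccl9 and -0.82 for Ccl6. At W12 the mean of the adipocyte-rich arrays was higher than that of the others by 1.09 for Ccl6, 0.76 for Ccl11, 0.61 for Ccl9 and 0.29 for Ccl5. The differences were -4.45 for Ccl4, -4.37 for Ccl3, -4.17 for Ccl7, -2.86 for Ccl2, -0.83 for Ccl12 and -0.81 for Ccl8. The others include HF5, where Ccl3, Ccl5 and Ccl12 were not well above background.

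**Figure D2:**
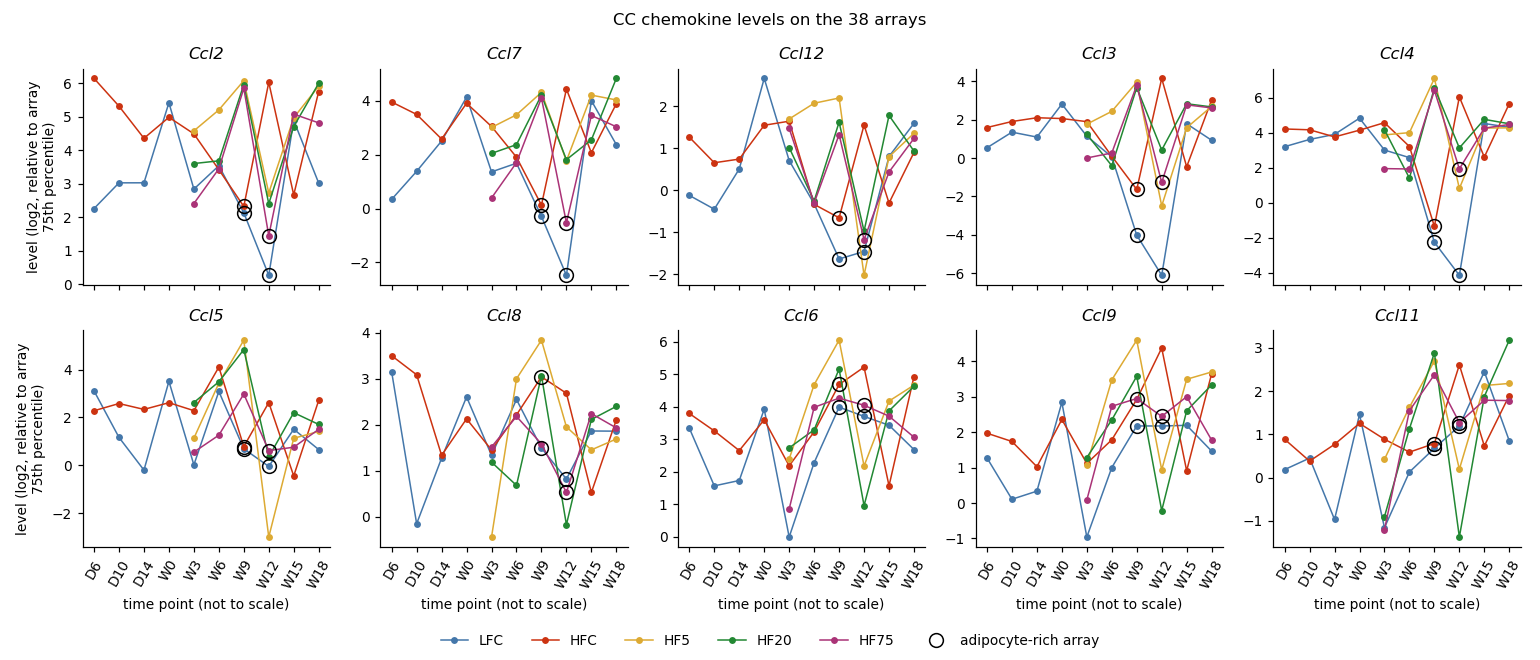
Levels of the 10 genes (y axes, log2 relative to the 75th percentile of the array) at each time point (x axes, not to scale) for the 5 diets, 1 array per point; black rings mark the adipocyte-rich arrays. The LFC line of Ccl3 drops to -6.10 at W12, while that of Ccl6 stays at 3.71.

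The first diet comparison asks whether the high fat diet changed these genes over the whole course. All 10 members had a higher mean level in HFC than in LFC, by 0.47 to 1.51 log2 units (1.39-fold to 2.85-fold), and none passed the test. In limma over 10 time points, 0 of 31203 probes passed an adjusted p of 0.05, so the background is 0%. The smallest adjusted p of any probe was 0.547, and 2824 probes had an unadjusted p under 0.05. Of the members, Ccl2, Ccl6 and Ccl9 had an unadjusted p under 0.05, 3 of 10 and all higher, against 4.55% of all probes higher and 4.5% lower. The median difference was 0.89 over the members and 0.01 over all probes tested.

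Ccl2 ran from 0.27 to 5.42 on the LFC arrays (median 3.03) and from 2.33 to 6.15 on the HFC arrays (median 4.74). HFC was higher at 7 of 10 time points, by 1.51 on average (SE 0.65, 95% interval 0.08 to 2.94, adjusted p 0.547 in limma). Ccl7 gave 1.44 (SE 0.69, unadjusted p 0.060 in limma), and its second probe 1.60 (SE 0.71, unadjusted p 0.044 in limma). The adjusted p was 0.547 for both probes. The ranges of the diets overlapped for all of these. Ccl12 gave 0.47 (SE 0.37).

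Ccl3 ran from -6.10 to 2.81 in LFC (median 1.01) and from -1.63 to 4.14 in HFC (median 1.89). HFC was higher at 8 of 10 time points, by 1.51 (SE 0.94, interval -0.54 to 3.57, adjusted p 0.578 in limma). Ccl4 gave 1.35 (SE 0.92) and Ccl5 0.84 (SE 0.47). The largest differences of Ccl3 and Ccl4, 10.24 and 10.22, were at W12, where the LFC array is adipocyte-rich. Without W12 alone Ccl3 gave 0.54 and Ccl4 0.37. Without W9 and W12 the difference was 0.31 for Ccl3, 0.30 for Ccl4 and 0.09 for Ccl12, but 1.14 for Ccl2 and 0.88 for Ccl7.

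Ccl9 ran from -0.96 to 2.84 in LFC (median 1.37) and from 0.91 to 4.38 in HFC (median 1.88). HFC was higher at 8 of 10 time points, by 0.92 (SE 0.34, interval 0.18 to 1.67, adjusted p 0.547 in limma), with the smallest unadjusted p of the family, 0.019. Ccl6 gave 0.85 (SE 0.36), Ccl11 0.55 (SE 0.33) and Ccl8 0.53 (SE 0.39). Without W9 and W12 these became 0.79 for Ccl9, 0.78 for Ccl6, 0.50 for Ccl11 and 0.23 for Ccl8. Without D10 alone Ccl8 also fell to 0.23.

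Beside these values, the 10 macrophage genes had a median difference of 0.64, with 10 of 10 above 0, and the 10 adipocyte genes one of -0.61, with 1 of 10 above 0. None of them passed in limma. Whether a higher macrophage share goes with the higher chemokine levels was not tested. With array brightness as a covariate the difference was 2.80 for Ccl3, 2.74 for Ccl4 and 0.31 for Ccl8.

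The difference was uneven over time, and at single time points no test is possible. At W12 all 10 members were at least 2-fold higher in HFC, by 1.41 to 10.24, where 39% of all probes were. The LFC array of W12 is adipocyte-rich, and the HFC array had 4850 outlier spots. The scaling matters at that point, since the median of all probes was 0.51 higher in HFC. After quantile normalization 18.6% of probes were 2-fold higher, and still 10 of 10 members. At W15 the direction was the other way, and all 10 members were at least 2-fold lower in HFC, by 1.11 to 2.24, where 8.89% of all probes were. The HFC W15 array also had a low macrophage level, -0.13 against 0.77 for LFC W15. Neutrophil (-3.57 against -1.41), B cell (-2.82 against -1.48) and T and NK cell genes (-3.56 against -2.45) were lower there too. Eosinophil and mast cell genes (-3.94 against -4.10) and epididymis genes (-2.09 against -3.39) were not. The part of any of these in the lower chemokine levels was not tested.

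The remaining time points fell between these. At W18, 8 of 10 members were at least 2-fold higher (background 21.4%), at D10 7 of 10 (20.7%) and at W3 7 of 10 (10.2%), with none lower at W3 (9.46%). At D6 the count was 5 of 10 (15.9%), with Ccl2 at 6.15 in HFC against 2.26 in LFC, and at D14 4 of 10 (12.8%), with none lower (9.55%). At W9 it was 2 of 10 higher and none lower (6.73% and 6.96%), between 2 adipocyte-rich arrays, and at W6 1 of 10 (10.2%). At W0, the same elapsed day as D14, all 10 members were lower in HFC, by 0.21 to 1.12, and 1 of them, Ccl12, by 2-fold or more (5.44%). Ccl2 was saturated on both W0 arrays.

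**Figure D3:**
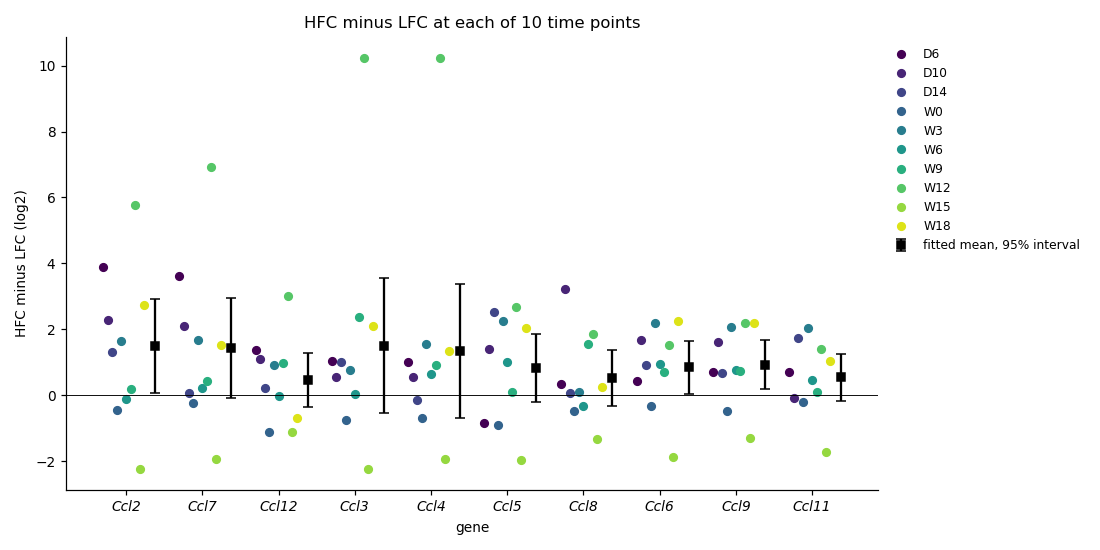
HFC minus LFC (y axis, log2) for each gene (x axis) at the 10 time points (coloured points, 1 pair of arrays each) with the fitted mean and its 95% interval (black squares). The W12 points of Ccl3 and Ccl4 lie above 10, the W15 points of all genes below 0, and 3 of 10 intervals lie above 0.

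The second comparison asks whether levels moved with time in the 2 control diets together, as a slope per week. In limma 154 of 31203 probes passed (0.494%), and no member did. Ccl11 had a slope of 0.07 per week (SE 0.03, interval 0.01 to 0.12, adjusted p 0.351) and Ccl9 one of 0.07 (SE 0.03, interval 0.00057 to 0.14, adjusted p 0.437). These 2 had an unadjusted p under 0.05, both upward, against 5.13% of all probes upward and 6.18% downward. Ccl6 had 0.05 (SE 0.04), and the other 7 members had slopes from -0.07 (Ccl3) to -0.02 (Ccl7). Without the 4 adipocyte-rich arrays the slopes of Ccl2, Ccl3, Ccl4, Ccl7 and Ccl12 all came to lie above 0, none past the test.

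The formulation groups ask whether KAL-1 changed the levels in mice on the HFC diet, over W3 to W18. Of 33780 probes tested in limma, 0 passed against HFC at any dose (0%), and the smallest adjusted p of a member was 0.9995. The intervals were wide. That of Ccl2 against HFC was -0.74 to 2.33 for HF5, -1.26 to 1.81 for HF20 and -1.81 to 1.26 for HF75. A change of the members at a dose is thus neither shown nor excluded. Before adjustment, 1594 probes had a p under 0.05 for HF5 (3.67% higher and 1.05% lower), 519 for HF20 (1.3% and 0.24%) and 661 for HF75 (0.699% and 1.26%), with none of the members among them. The members' median difference was 0.45 for HF5 (8 of 10 above 0, range -0.45 to 0.89) and 0.25 for HF20 (6 of 10, -0.46 to 0.64). It was -0.28 for HF75 (4 of 10, -0.73 to 0.18). The medians over all probes were -0.03, 0.04 and 0.04. Ccl2 ran from 2.73 to 6.08 in HF5, from 2.41 to 6.00 in HF20 and from 1.45 to 5.85 in HF75, and Ccl6 from 2.18 to 6.05, 0.96 to 5.17 and 0.86 to 4.27. All of these ranges overlapped with those of HFC.

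These averages hold large differences of opposite direction at single weeks. The 3 doses are set against the same HFC arrays, and at W9 the dose arrays also share a scan day that is not that of HFC, so a part of the doses, of the HFC array and of the scan day cannot be told apart there. At W9 the HFC array is adipocyte-rich, and 9 of 10 members were at least 2-fold above it in HF5 (background 26.1%), 7 in HF20 (26%) and 7 in HF75 (23.7%), where 1 was lower (15.8%). At W12 the HFC array had the highest macrophage level of all arrays, 2.22. The members were at least 2-fold below it in 9, 10 and 10 of 10 cases (15.7%, 25% and 16.4%). None was 2-fold above it in HF5 (29%). HF75 W12 is itself adipocyte-rich, and HF5 W12 is the dimmest array. Of the 7 members well above background on both HF5 and HFC at W12, 6 were at least 2-fold lower in HF5 (10.9% of such probes). At W15 the HFC array was low in macrophage genes, and 9 of 10 members were at least 2-fold above it at each dose (4.48%, 11.3% and 6.06%). At W15 the macrophage level of the dose arrays was 1.15 to 1.47, and their neutrophil level -1.35 to 0.19, against -3.57 on HFC. Without W9 the median of HF20 was -0.39 and without W15 it was -0.11, while without W12 the median of HF75 was 0.30. The median of HF5 was 0.028 without W9 and 1.28 without W12, and in limma no probe passed in either of these fits.

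The other weeks differed between the doses. At W18, 2, 2 and 4 members were at least 2-fold lower in HF5, HF20 and HF75 (7.26%, 3.55% and 9.16%), and 1 was higher in HF20 (20%). At W6, 7 members were at least 2-fold higher in HF5 and none lower (6.83% and 9.11%), among them Ccl12 at 2.08 against -0.33, and none in HF20 (9.99%) or HF75, where 2 each were lower (9.48% and 15.2%). At W3, 8 members were at least 2-fold lower in HF75 (27%), on the second dimmest array, against 2 in HF5 (4.63%, with none higher against 9.3%) and 1 in HF20 (3.26%).

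The levels of the members rose and fell together to different degrees, and all 45 pairs were positive, with a median r of 0.64. Correlations are given here as a description over the 34 arrays other than the adipocyte-rich ones, which stand apart, and arrays share brightness and cell content. The closest pairs were direct neighbours on chromosome 11: Ccl6 and Ccl9 (Pearson's r 0.97, Spearman's rho 0.98), Ccl2 and Ccl7 (0.93 and 0.92) and Ccl3 and Ccl4 (0.93 and 0.88). In the RefSeq annotation of GRCm38.p6 the members lie in the order Ccl2, Ccl7, Ccl11, Ccl12, Ccl8 and, further along, Ccl5, Ccl9, Ccl6, Ccl3, Ccl4. Ccl8 and Ccl12, also adjacent, were the least alike of the 45 pairs (r 0.34). The 8 adjacent pairs had a median r of 0.72 and the other 37 pairs one of 0.62. The median r was 0.75 within Ccl2, Ccl7, Ccl3, Ccl4 and Ccl12 and 0.89 within Ccl6, Ccl9 and Ccl11. Between these 2 sets it was 0.65, much as over all pairs, and 0.37 with the adipocyte-rich arrays included. The sets were formed by their levels on those arrays, so the lower value with them included is no support for a split. Within scan days the 3 closest pairs gave 0.98, 0.93 and 0.90.

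**Figure D4:**
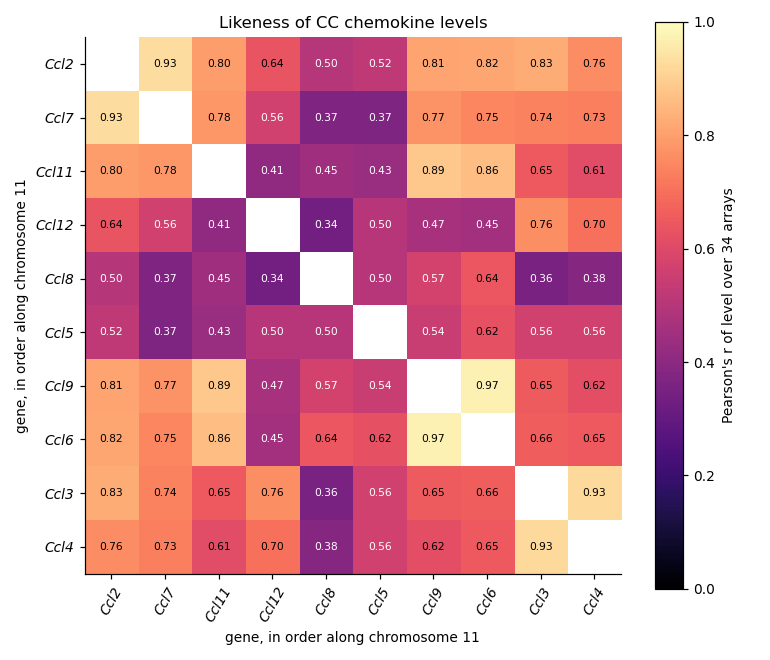
Pearson's r of the levels of each pair of genes over the 34 arrays that are not adipocyte-rich, with genes on both axes in their order along the chromosome and brighter colours for higher r. Bright cells lie at Ccl2 with Ccl7, Ccl9 with Ccl6 and Ccl3 with Ccl4, and the lowest value, 0.34, is that of Ccl12 with Ccl8.

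The sequence before the start of the gene is shown for the closest pair, Ccl6 and Ccl9, and for the least alike neighbours, Ccl8 and Ccl12, from RefSeq (GRCm38.p6), 250 bases up to the start, 5′ to 3′ on the strand of the gene. Of the members, 5 matched the promoter table: these 4 and Ccl3. Ccl2, Ccl4, Ccl5, Ccl7 and Ccl11 are named only. Capitals mark TATAAA on the strand of the gene (read as the TATA box where it lies shortly before the start) and the longest run of bases that Ccl6 and Ccl9 share.
Ccl6, chr11:83593088-83593337, reverse strand: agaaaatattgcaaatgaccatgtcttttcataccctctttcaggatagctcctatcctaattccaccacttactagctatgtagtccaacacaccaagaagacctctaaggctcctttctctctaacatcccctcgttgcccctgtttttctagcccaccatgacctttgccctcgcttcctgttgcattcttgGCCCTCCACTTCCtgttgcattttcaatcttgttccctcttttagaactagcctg
Ccl9, chr11:83578637-83578886, reverse strand: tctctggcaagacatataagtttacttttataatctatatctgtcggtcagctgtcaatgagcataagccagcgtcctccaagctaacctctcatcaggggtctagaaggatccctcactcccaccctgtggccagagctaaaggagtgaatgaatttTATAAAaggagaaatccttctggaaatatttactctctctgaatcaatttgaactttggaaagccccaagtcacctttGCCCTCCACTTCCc
Ccl8, chr11:82114935-82115184, forward strand: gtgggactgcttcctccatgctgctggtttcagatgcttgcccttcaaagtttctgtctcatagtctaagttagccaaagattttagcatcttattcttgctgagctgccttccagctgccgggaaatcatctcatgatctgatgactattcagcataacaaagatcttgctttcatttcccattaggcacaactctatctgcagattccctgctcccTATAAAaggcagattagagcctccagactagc
Ccl12, chr11:82101595-82101844, forward strand: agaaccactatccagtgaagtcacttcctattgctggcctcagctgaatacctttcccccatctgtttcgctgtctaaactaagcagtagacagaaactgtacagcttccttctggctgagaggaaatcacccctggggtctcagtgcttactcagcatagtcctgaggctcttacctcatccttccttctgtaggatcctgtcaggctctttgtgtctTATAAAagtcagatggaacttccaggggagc

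Ccl8 and Ccl12 both held TATAAA, at positions -32 and -31 from the start, and Ccl9 held it at -92, while 7.59% of all 32851 promoters of the table did. Ccl6 and Ccl3 held none. The run shared by Ccl6 and Ccl9 was 13 bases long, at -55 and -14, and the longest shared by Ccl8 and Ccl12 was 8. On both strands, Ccl9 alone of the 5 held TGANTCA (6.75% of promoters), in the form TGAATCA. With any letter at N, this pattern is looser than the site best known for AP-1 factors such as Fos and Jun. Ccl9 alone held a match to the NF-kB motif (7.25%). GAGGAA, the core letters read by Ets factors, stood on either strand of Ccl12, Ccl8 and Ccl3 (23.3%). These matches are a description of the letters in the window.

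Over the same 34 arrays the members went with the cell type and cytokine lists to different degrees. Ccl6 and Ccl9 went with the mean level of the 10 macrophage genes (r 0.90 and 0.86), as did Ccl2 (0.88), Ccl11 (0.80), Ccl7 (0.79), Ccl3 (0.78) and Ccl4 (0.73), while Ccl5, Ccl8 and Ccl12 gave 0.56 to 0.59. Ccl5 went with the T and NK cell genes (r 0.87), the next highest being Ccl6 at 0.64. Ccl4 went with the inducing cytokines (0.90), as did Ccl3 (0.86), Ccl2 (0.85), Ccl7 (0.79), Ccl6 (0.78), Ccl9 (0.74) and Ccl11 (0.74). With the immediate early genes the r was at most 0.45, for Ccl4. With the 4 adipocyte-rich arrays included, the r with macrophage genes fell to 0.47 for Ccl3 and 0.38 for Ccl4 and stayed at 0.89 for Ccl6.

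**Figure D5:**
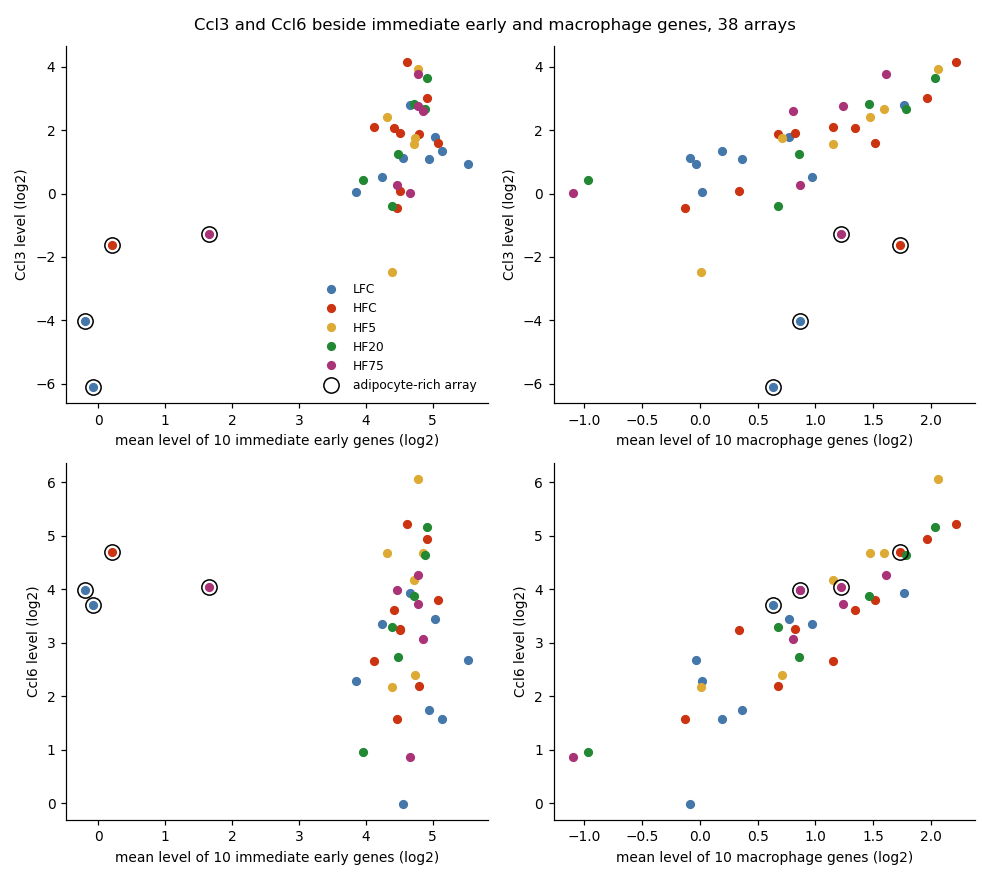
Levels of Ccl3 (top) and Ccl6 (bottom) on the y axes against the mean level of 10 immediate early genes (left) and 10 macrophage genes (right), all in log2 units, 1 point per array coloured by diet; black rings mark the adipocyte-rich arrays. The ringed arrays lie apart on the left panels and, for Ccl6 with macrophage genes, among the other points.

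The fixed measure of likeness was Pearson's r over all 38 arrays with each of 24479 probes of genes that are no members. These probes were well above background on at least 19 arrays and had a level on all 38. A probe with all its spots flagged as outliers on any array was thus left out. The 3 genes most like each member were as follows. The closest members, left out of this ranking, were nearer still for Ccl6 and Ccl9 (0.97), Ccl3 and Ccl4 (0.96) and Ccl2 and Ccl7 (0.95). For Ccl2 these were Tnf (0.91), Il1rn (0.91) and Clec4e (0.88), and for Ccl7 Tnf (0.92), Has1 (0.91) and Eif4e (0.90). For Ccl3 they were Cxcl2 (0.93), Tnf (0.92) and Il10 (0.91), and for Ccl4 Ifnb1 (0.97), Ccrl2 (0.93) and Gdf15 (0.92). For Ccl12 they were Lif (0.86), Cxcl16 (0.85) and Il1b (0.83). Without the 4 adipocyte-rich arrays none of the 3 genes stayed for Ccl2, Ccl3 and Ccl7, and the first was then Cxcl1 for Ccl2 (0.93), Gp49a for Ccl3 (0.91) and LOC640890 for Ccl7 (0.88). Ifnb1 stayed first for Ccl4 (0.93). Tnf, Il1b, Il10, Ifnb1 and Lif encode cytokines, and Cxcl2 and Cxcl16 chemokines of another class.

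For Ccl5 the 3 genes were Nkg7 (0.97), Samsn1 (0.92) and Klrd1 (0.92), of which Nkg7 and Klrd1 are genes of cytotoxic lymphocytes. For Ccl6 they were Lilrb3 (0.95), Fcna (0.92) and Folr2 (0.90), and for Ccl9 Lilrb3 (0.89), Msr1 (0.87) and Ms4a6d (0.87). Msr1, Fcna and Folr2 are known from macrophages. For Ccl11 they were AI607873 (0.89), Ifi204 (0.89) and Wnt11 (0.85), and for Ccl8 Mpeg1 (0.75), Fcer1g (0.74) and Cotl1 (0.72). Ccl8 had the weakest best match of the 10.

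The receptors and the rest of the family were read from fixed lists, and in HFC minus LFC none of their genes passed in limma. Of 15 CC chemokine receptor genes, 12 were tested, 12 were above 0 and the median was 0.49, led by Ccbp2 (0.71, SE 0.22) and Ccrl1 (1.29, SE 0.44), decoy receptors that take up chemokines. Of 11 other CC chemokines, 8 were tested, 7 were above 0 and the median was 0.30, with Ccl24 (0.39, SE 0.36) and Ccl25 (-0.20, SE 0.19) of smallest p. Of 8 inducing cytokines, 7 were above 0 with a median of 0.91, among them Ifng (1.40, SE 0.54) and Tnf (1.76, SE 0.81). The 10 immediate early genes had a median of 0.30 and the 13 NF-kB genes one of 0.18. In the slope none of these lists had a gene past the test, and none passed at any dose.

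Among the cell type lists, none had a gene past the test in HFC minus LFC. The medians were 0.57 for 10 T and NK cell genes, 0.34 for 4 B cell genes, 0.41 for 5 eosinophil and mast cell genes tested and 0.23 for 6 neutrophil genes. They were -0.25 for 5 fibroblast, -0.59 for 5 endothelial, 1.81 for 5 mesothelial and 1.75 for 7 epididymis genes. In the slope, Col1a1 of the fibroblast list fell by 0.13 per week (adjusted p 0.027 in limma), the only gene of these lists that passed. Age and scan day go with time in that fit too.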

How the data were processed

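RNA from epididymal SVCs was read on 38 one-colour Agilent arrays. The authors deposited each array's scanner output with background-subtracted spot intensity from Feature Extraction (version 9.1 per the submitters' notes, a later one per the file headers), not normalized between arrays. Control spots and outlier spots were left out and spots of a probe averaged. A level is the log2 intensity minus the log2 75th percentile of all non-control spots of the array, outlier spots included. The authors' deposited table of fold changes was not used.

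Probes well above background on at least 0.5 of the arrays of 1 diet were tested with limma 3.58.1 (R 4.3.3). Tests were two-sided, and Benjamini-Hochberg adjusted p-values were held to 0.05. Time point was a block for the diets, and diet for the slope on elapsed time, with weeks placed after day 14. Groups follow the sample titles, but for the last 2 weeks of HF5 and HF20 the diet field gives each the dose of the other. Doses are described by counts called, medians and ranges, with intervals for Ccl2. At single time points 2-fold counts are given without a test. Scripts were tested on simulated data.

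All 10 members were named in every comparison, with the 3 genes most like each and, for other lists, genes that passed or the 2 of smallest p. The members and lists were chosen with earlier results of these data known. Alternatives were quantile and normexp normalization (offset 50), other filters, the doses of the diet field, a brightness covariate, scan day or slide as a block, no block, and leaving out time points or arrays. Precision is limited by how many arrays there are.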

Additional observations from a re-analysis of the deposited data

Results flagged for a closer look

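Of 50 sets of 1 gene in 1 diet, 5 held a lowest array far from the rest of its diet by Dixon's test, and chance gives about 1 in 20, or 2.5. Ccl3 on HF5 W12 stood at -2.49, the nearest HF5 array being at 1.57, and Ccl12 on the same array at -2.02, the nearest being at 0.80. HF5 W12 was the dimmest array, and both genes were not well above background there. Ccl4 on HFC W9, an adipocyte-rich array, stood at -1.36, the nearest HFC array being at 2.61. Ccl6 on HF75 W3 stood at 0.86 (nearest 3.07) and Ccl11 on the same array at -1.21 (nearest 1.27). HF75 W3 was the second dimmest array and had the lowest macrophage level, -1.10.

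The HFC minus LFC difference of the members had opposite directions at neighbouring time points, with a median of 2.84 at W12 and of -1.89 at W15, and all 10 members followed. With 1 pair of arrays at each, the difference between the time points was not tested.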

How the results depend on the processing

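In HFC minus LFC, 200 of 200 values of the members under the alternatives lay above 0 and none passed (smallest adjusted p 0.379 in limma). These values are not independent. The other filters and leaving out the block do not move a member's mean difference, and fits without 1 time point share most arrays. Without the pairing by time point (no replicate block), 0 probes passed in HFC minus LFC (1111 unadjusted) and 0 at each dose (1045 for HF5, 177 for HF20 and 310 for HF75 unadjusted), and no call changed. With slide as a random block in HFC minus LFC the estimated correlation within a slide was -0.95, and no test results of that fit are given. The 154 probes with a slope became 75 with a filter on every array, 98 without W9 and W12, 95 without the 4 adipocyte-rich arrays (chosen after seeing the data), 0 in LFC alone and 0 in HFC alone, and 37 (without D6) to 219 when 1 time point was left out. Of 200 slopes of members, 190 kept their direction. The slope of Ccl4 was 0.022 and that of Ccl7 0.021 without W9 and W12, that of Ccl4 0.00047 in HFC alone, and those of Ccl2, Ccl3, Ccl4, Ccl7 and Ccl12 were 0.0014, 0.0033, 0.036, 0.030 and 0.0013 without the adipocyte-rich arrays. With 1 time point left out Ccl7 ran from -0.075 to 0.0064 and Ccl8 from -0.037 to 0.0025. The dose medians turned more easily. That of HF20 was -0.12 with a filter on every array, -0.34 with scan day as a block, -0.40 without the adipocyte-rich arrays and -0.39 to 0.88 with 1 week left out. The mean of the doses gave -0.35 with scan day as a block, -0.34 without the adipocyte-rich arrays and -0.36 to 0.75 with 1 week left out. HF75 gave 0.30 without HFC W12 and HF75 W12, the arrays with the most outlier spots. It gave -0.76 to 0.30 with 1 week left out, and HF5 0.028 to 1.28. The cause was not tested.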
